A study of Homo sapiens with 4 samples.

Results

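The 10 genes described here are EEF1A1, EEF1B2, EEF1D, EEF1G and EEF2, which encode translation elongation factors, and PABPC1, TPT1, RACK1, NACA and FAU. They were chosen by gene symbol because their mRNAs belong to the 5′ terminal oligopyrimidine (TOP) class while the genes lie outside the RPL and RPS families of ribosomal protein genes, and because they differ in length. The rule used no measured value, but it was written with earlier results of these data known, to set other TOP mRNAs beside the ribosomal protein genes. All 10 were present among the 36601 genes listed in each library. All 10 also had a mean of at least 10 CPM (UMIs of the gene per 1000000 UMIs of the library) over the 4 libraries, a floor that 8507 genes passed.

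A TOP mRNA begins with a cytosine at its cap, followed by an unbroken run of pyrimidines. Cells translate such mRNAs when growth signalling through the mTORC1 kinase is high, and they hold them out of polysomes when it is low, with the cap-binding protein LARP1 acting as a repressor and stabilizer. The class covers nearly all ribosomal protein genes and many genes for translation factors, and its mRNAs are among the most abundant in dividing cells.

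The cells were BEAS-2B, a human line derived from normal bronchial epithelium and immortalized in culture. Cells in T25 bottles were exposed to gamma rays of a Cs-137 source at 100 mGy per min, and the groups were control cells and cells given 10 mGy, 100 mGy or 1 Gy. Irradiated cells were processed after 30 min in culture, and no such time is stated for the control. Every library was made with the Chromium 3′ kit, version 3, which tags the mRNA of a cell with that cell's barcode and tags every captured molecule with a unique molecular identifier (UMI) of its own. Each dose had 1 library, so no test between doses was made, dose and library cannot be told apart, and the 95% intervals given below cover counting error only.

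The libraries held 11111 to 21514 barcodes and 211752280 to 285806026 UMIs, with a median of 12417 to 19771 UMIs per barcode. Barcodes with less than their library's median UMI count divided by 3, called low-UMI barcodes here, made up 19.6% of the control library and 41.4%, 27.4% and 25.4% of those given 10 mGy, 100 mGy and 1 Gy. Between 76 and 134 barcode sequences were shared by any pair of libraries. The keratin genes KRT7, KRT8 and KRT18 stood at 645, 273 and 236 CPM in the control, and the mesenchymal genes VIM and FN1 at 2702 and 1546 CPM. Some of these markers moved in the low-dose libraries, with ratios to the control at 10 mGy and 100 mGy of 0.403 and 0.414 for FN1, 0.715 and 0.819 for CDH2, 0.777 and 0.914 for KRT7, 1.09 and 1.296 for KRT18 and 1.399 and 1.29 for KRT17. At 1 Gy the 7 epithelial and mesenchymal markers past the floor lay between 0.865 and 1.07. KRT19 stood at 1.72 CPM in the control, and the epithelial genes CDH1 and EPCAM stayed under 1.2 CPM in every library. Of 10 markers of other cell types, COL1A1 (25.6 CPM), CD68 (10.8 CPM) and ACTA2 (2.44 CPM) were the highest in the control, the other 7 had 0 to 63 UMIs there, and CD3E had 0 UMIs in every library. Ribosomal protein genes (76 genes) took 13.6% of UMIs in the control, 19.5% after 10 mGy, 21.3% after 100 mGy and 13.6% after 1 Gy. Mitochondrially encoded genes took 5.91%, 4.55%, 4.40% and 5.78% in the same order, and the part of these shifts in the results below was not tested.

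The annotated starts of the genes are shown first because the pyrimidine run is what defines the class. Of the 10 genes, 8 matched the RefSeq promoter table (GRCh38.p14), and EEF1D and PABPC1 did not. Each window below holds 10 bases before and 20 bases from the annotated start on, 5′ to 3′ on the gene's strand, and the capitals mark the run of C and T that begins with a C at the start.
EEF1A1: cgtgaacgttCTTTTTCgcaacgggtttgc
EEF1B2: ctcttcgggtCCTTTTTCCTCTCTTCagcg
EEF2: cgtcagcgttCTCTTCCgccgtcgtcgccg
TPT1: ctgagtcggcCTTTTCCgcccgctcccccc
RACK1: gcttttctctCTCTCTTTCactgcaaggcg
NACA: ctcgctcggtCTTTCTgccgccatcttggt
FAU: tcgcttcttcCTCTTTCTCgactccatctt
EEF1G: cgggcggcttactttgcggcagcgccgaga

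The windows lie at chr6:73521013-73521042 (minus strand) for EEF1A1, chr2:206159885-206159914 (plus) for EEF1B2, chr19:3985444-3985473 (minus) for EEF2 and chr13:45341164-45341193 (minus) for TPT1. Those of RACK1, NACA, FAU and EEF1G lie at chr5:181243887-181243916, chr12:56725280-56725309, chr11:65122115-65122144 and chr11:62573872-62573901, all on the minus strand. The search asked for a C at the annotated start followed by at least 4 pyrimidines on the gene's own strand. It was met by 7 of the 8 genes, with runs of 16 bases in EEF1B2, 9 in RACK1 and FAU, 7 in EEF1A1, EEF2 and TPT1, and 6 in NACA. EEF1G did not meet it at its annotated start, and EEF1B2 met it at the downstream of its listed starts. The same letters were found at 5.14% of the 27305 genes in the table and at 45 of the 61 ribosomal protein genes it holds (73.8%). These are letters at annotated starts, and the starts used in these cells were not measured.

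The 10 genes together took 1.32% of UMIs in the control, 1.61% after 10 mGy, 1.58% after 100 mGy and 1.33% after 1 Gy. Both low-dose libraries stood above the control and above 1 Gy in this sum, but single genes went in different directions. A gene is called higher where its CPM was more than 1.2-fold that of the control, and lower where it was under the control's CPM divided by 1.2. At 10 mGy, 6 genes were higher (EEF1B2, EEF1D, TPT1, RACK1, NACA and FAU), 2 were lower (EEF2 and PABPC1) and EEF1A1 and EEF1G lay between. Of all 8507 genes, 15.4% were higher and 53.0% were lower in that comparison. At 100 mGy, 5 genes were higher, the same 2 were lower, and TPT1, EEF1A1 and EEF1G lay between, beside 14.0% of all genes higher and 58.9% lower. At 1 Gy, 0 of the 10 genes were higher and 0 lower, beside 1.28% and 0.846% of all genes.

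The background depends on abundance. Among genes with a mean of at least 100 CPM, a floor that all 10 genes also passed, 30.7% were higher at 10 mGy and 30.9% at 100 mGy. Over all 8507 genes the median log2 ratios at 10 mGy, 100 mGy and 1 Gy were -0.30, -0.38 and 0.02, while those of the 10 genes were 0.35, 0.34 and 0.02. Measured from this median of all 8507 genes, 8 of the 10 genes stood above it at 10 mGy and 9 at 100 mGy. This median was not matched for abundance, so these counts do not compare the 10 genes with genes as abundant. The directions below hold for UMIs relative to the library total. Without such scaling, as mean UMIs per barcode, FAU alone was higher at both low doses. This unscaled ratio, taken over all barcodes, is given for each gene. Low-UMI barcodes lower such a mean, and they made up 41.4% of the 10 mGy library and 19.6% of the control. Unscaled without low-UMI barcodes, 5 genes were higher and 2 lower at 10 mGy, and 1 was higher and 4 lower at 100 mGy. Across all genes the log2 ratio then had a median of -0.42 and -0.89, and of -0.83 and -1.03 unscaled over all barcodes. Shares of all genes past the limit are not given for either unscaled setting.

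**Figure D1:**
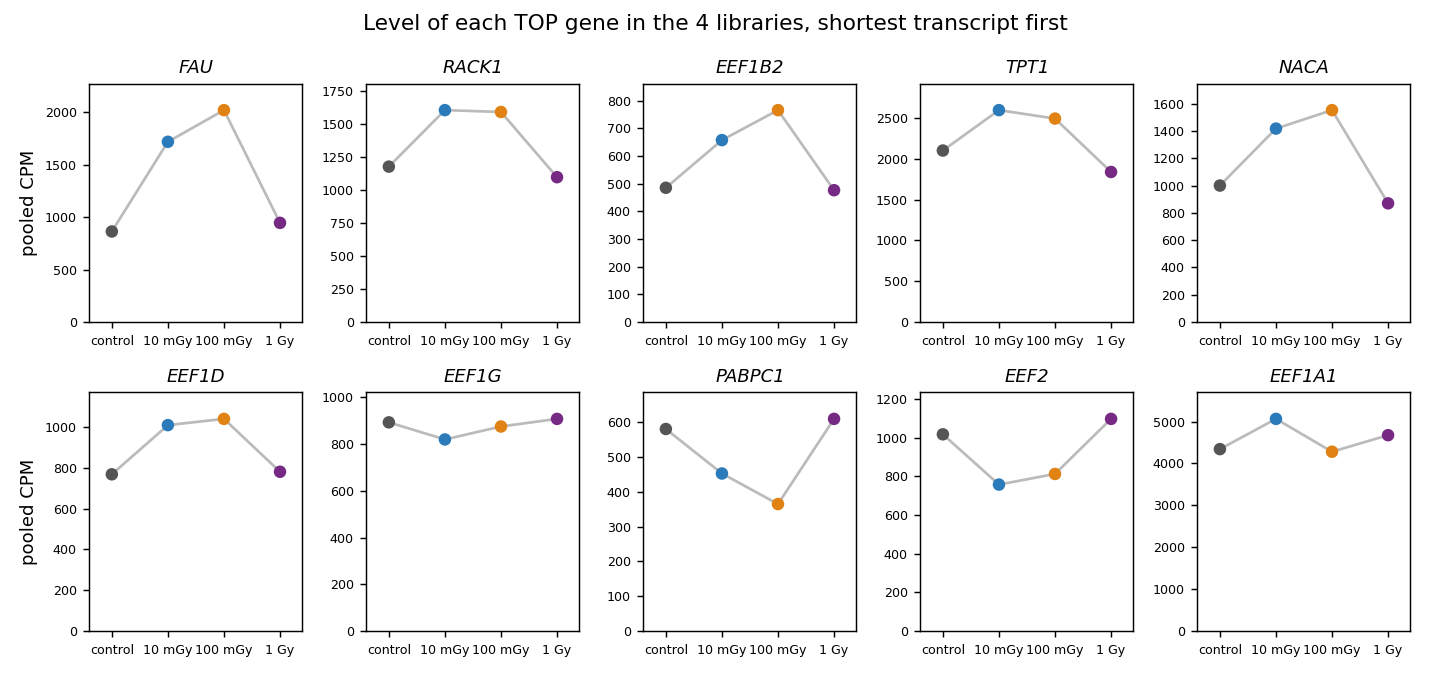
Pooled CPM (UMIs per 1000000 UMIs of the library, vertical axis from 0) of each gene in the 4 libraries, with genes ordered by median transcript length, points for libraries and bars for 95% counting intervals, which are smaller than the points. FAU stood at 863 CPM in the control, 1718 after 10 mGy, 2020 after 100 mGy and 946 after 1 Gy, while PABPC1 and EEF2 were lowest in the low-dose libraries.

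Elongation factor eEF1A brings each aminoacyl-tRNA to the ribosome, and EEF1A1 (ENSG00000156508) encodes its main form in most dividing cells. EEF1A1 stood at 4342 CPM in the control, 5064 after 10 mGy, 4279 after 100 mGy and 4674 after 1 Gy. Of these, only the 10 mGy library was set apart from the control by more than 1.1-fold. The ratio to the control was 1.17 at 10 mGy (1.16 to 1.17), 0.986 at 100 mGy (0.983 to 0.988) and 1.08 at 1 Gy (1.07 to 1.08). As unscaled UMIs per barcode it was 0.809, 0.631 and 0.767.

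The eEF1B complex recharges eEF1A with GTP. Its exchange subunits are encoded by EEF1B2 (ENSG00000114942) and EEF1D (ENSG00000104529), and its scaffold subunit by EEF1G (ENSG00000254772). EEF1B2 stood at 485, 657, 766 and 476 CPM in the control, 10 mGy, 100 mGy and 1 Gy libraries. EEF1D stood at 768, 1009, 1040 and 780 CPM in that order. Both exchange subunits were thus high in both low-dose libraries and close to the control at 1 Gy. EEF1B2 reached 1.35 times the control at 10 mGy (1.34 to 1.37) and 1.58 times at 100 mGy (1.57 to 1.59). EEF1D reached 1.31 (1.31 to 1.32) and 1.35 (1.35 to 1.36) times the control. Unscaled, these ratios were 0.940 and 1.01 for EEF1B2 and 0.911 and 0.866 for EEF1D. The direction thus turned for EEF1D at both low doses and for EEF1B2 at 10 mGy. Unscaled without low-UMI barcodes, they were 1.24 and 1.12 for EEF1B2 and 1.22 and 0.962 for EEF1D, with EEF1D turned at 100 mGy only.

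EEF1G did not follow the exchange subunits. It stood at 893 CPM in the control, 820 after 10 mGy, 876 after 100 mGy and 908 after 1 Gy, and its ratios of 0.918, 0.980 and 1.02 all lay within the limits. Its unscaled ratios were 0.637, 0.627 and 0.725. The ratio of summed UMIs of members of a complex within a library does not depend on the library total. EEF1B2 had 0.543 UMIs per EEF1G UMI in the control (0.539 to 0.547), 0.801 after 10 mGy (0.797 to 0.806), 0.874 after 100 mGy (0.869 to 0.880) and 0.524 after 1 Gy (0.520 to 0.528). EEF1D had 0.859, 1.23, 1.19 and 0.859 UMIs per EEF1G UMI. The balance of UMIs between exchange and scaffold subunits was therefore shifted in both low-dose libraries and nearly equal in the control and 1 Gy libraries. Without the low-UMI barcodes, EEF1B2 had 0.539, 0.793, 0.868 and 0.519 UMIs per EEF1G UMI. These genes also differ in transcript length. Genes of like length to EEF1B2, EEF1D and EEF1G had median ratios to the control of 1.33, 1.12 and 0.993 at 10 mGy. At 100 mGy these medians were 1.37, 1.10 and 0.968. The part of length in the shift was not tested. Against EEF1A1, EEF1B2 had 0.112, 0.130, 0.179 and 0.102 UMIs per UMI, and EEF1G 0.206, 0.162, 0.205 and 0.194, with the 10 mGy library lowest for EEF1G.

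Elongation factor 2 moves the ribosome along the mRNA after each peptide bond, and EEF2 (ENSG00000167658) encodes it. EEF2 stood at 1018 CPM in the control, 758 after 10 mGy, 813 after 100 mGy and 1098 after 1 Gy. Both low-dose libraries were below the control, and 10 mGy was the lowest. The ratios were 0.744 (0.740 to 0.749) at 10 mGy, 0.798 (0.794 to 0.803) at 100 mGy and 1.08 (1.07 to 1.08) at 1 Gy. EEF2 had 0.234 UMIs per EEF1A1 UMI in the control, 0.150 after 10 mGy, 0.190 after 100 mGy and 0.235 after 1 Gy. With the libraries scaled by their median ratio over genes, EEF2 came to 0.917 at 10 mGy and turned to 1.04 at 100 mGy, and unscaled it was 0.516, 0.511 and 0.769.

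PABPC1 (ENSG00000070756) encodes the cytoplasmic poly(A)-binding protein, which joins the tail of an mRNA to its cap complex. PABPC1 stood at 581 CPM in the control, 453 after 10 mGy, 365 after 100 mGy and 610 after 1 Gy, the lowest level being at 100 mGy. The ratios were 0.779 (0.773 to 0.786), 0.628 (0.623 to 0.634) and 1.05 (1.04 to 1.06). It was the only gene of the 10 past the limit between the low doses, at 0.806 of its 10 mGy level at 100 mGy. In that comparison 1.35% of all genes were higher and 12.7% lower. The 10 mGy value depended on the weight of barcodes with few UMIs: the mean of UMIs scaled to 10000 per barcode gave 1.08 at 10 mGy and 0.754 at 100 mGy. Unscaled, PABPC1 was at 0.541, 0.402 and 0.749 of the control.

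TPT1 (ENSG00000133112) encodes translationally controlled tumour protein, a small abundant protein tied to growth and survival. TPT1 stood at 2100 CPM in the control, 2595 after 10 mGy, 2491 after 100 mGy and 1838 after 1 Gy. Both low-dose libraries were above the control, and 1 Gy was below it. The ratios were 1.24 (1.23 to 1.24), 1.19 (1.18 to 1.19) and 0.875 (0.871 to 0.879). The unscaled ratios were 0.857, 0.759 and 0.624, below 1 at both low doses.

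RACK1 (ENSG00000204628) encodes a scaffold protein of the small ribosomal subunit. RACK1 stood at 1177, 1605, 1591 and 1097 CPM in the control, 10 mGy, 100 mGy and 1 Gy libraries, so the low-dose libraries were nearly level with each other and above the other two. The ratios to the control were 1.36 (1.36 to 1.37), 1.35 (1.34 to 1.36) and 0.932 (0.927 to 0.937). Unscaled, they were 0.946, 0.865 and 0.664.

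NACA (ENSG00000196531) encodes the alpha subunit of the nascent polypeptide-associated complex, which meets new chains at the ribosome exit and pairs with the BTF3 protein. NACA stood at 1000.1 CPM in the control, 1417 after 10 mGy, 1553 after 100 mGy and 869.9 after 1 Gy. It was high in both low-dose libraries and lowest at 1 Gy. The ratios were 1.42 (1.41 to 1.42), 1.55 (1.54 to 1.56) and 0.870 (0.864 to 0.875), and 0.983, 0.993 and 0.620 unscaled. NACA had 1.21 UMIs per BTF3 UMI in the control, 1.28 after 10 mGy, 1.42 after 100 mGy and 1.202 after 1 Gy, so the partners changed less against each other than against the library total. At 1 Gy, NACA and TPT1 were low within a narrow spread of all genes, at the 2.84 and 3.37 percentile, although neither was past the 1.2-fold limit.

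FAU (ENSG00000149806) encodes a ubiquitin-like protein fused to ribosomal protein eS30, so its product is a ribosomal protein although its symbol is outside the RPS series. FAU stood at 863 CPM in the control, 1718 after 10 mGy, 2020 after 100 mGy and 946 after 1 Gy. Both low-dose libraries were far above the other two. The ratios were 1.99 (1.979 to 2.001), 2.34 (2.33 to 2.35) and 1.10 (1.09 to 1.10), and FAU stood at the 99.6 percentile of all 8507 genes at 10 mGy. Its unscaled ratios were 1.38 and 1.497 at the low doses and 0.781 at 1 Gy. FAU had 0.733 UMIs per RACK1 UMI in the control, 1.07 after 10 mGy, 1.27 after 100 mGy and 0.862 after 1 Gy.

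**Figure D2:**
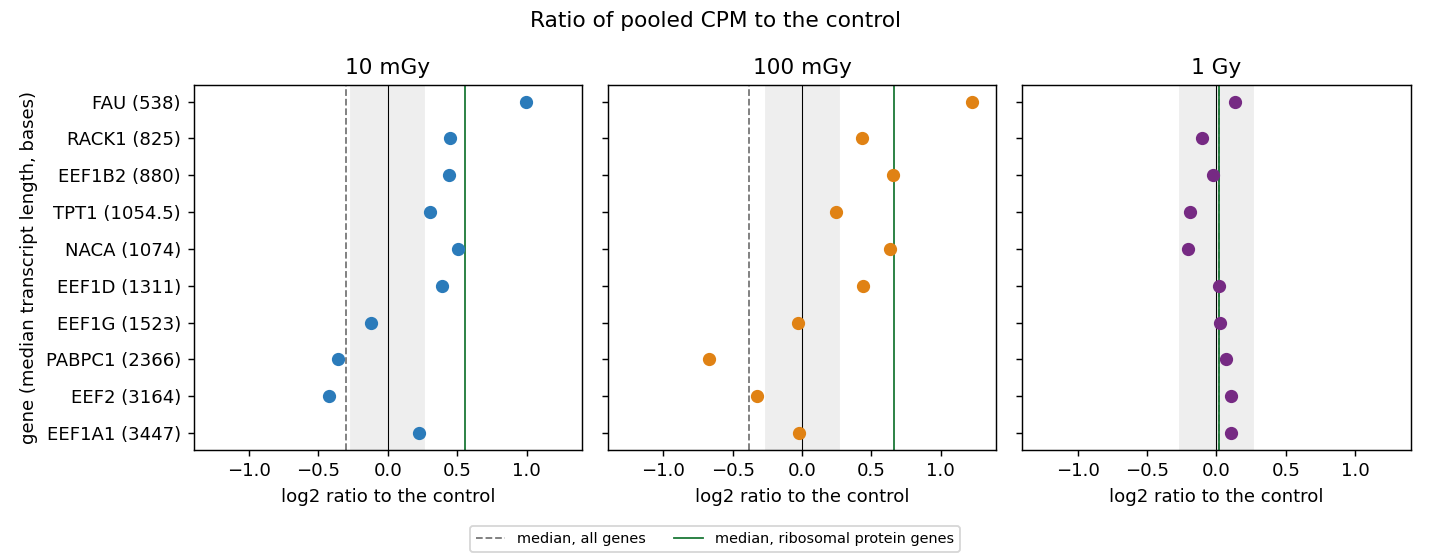
Log2 ratio of pooled CPM to the control (horizontal axis) for each gene, ordered by median transcript length in bases, with a panel for each dose; the grey band marks ratios within 1.2-fold, the dashed line the median of all 8507 genes and the green line the median of the 76 ribosomal protein genes. On this scale FAU was the farthest to the right at both low doses and EEF2 or PABPC1 the farthest to the left, and all 10 genes lay in the band at 1 Gy.

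The ribosomal protein genes were more uniform than these 10, but they also differ from them in transcript length, as given below. Of 76, 72 passed the upper limit at 10 mGy, 71 did so at 100 mGy and 0 at 1 Gy, and 0 passed the lower limit at any dose. Their median ratios were 1.47, 1.58 and 1.02, beside 1.27, 1.27 and 1.02 for the 10 genes. Within the family, RPL4 (0.989) and RPS2 (0.932) had the lowest ratios at 10 mGy, and EEF2 and PABPC1 lay below the lowest of the family at both low doses. A level above both the control and 1 Gy in both low-dose libraries was found for 6 of the 10 genes, for 74 of the 76 ribosomal protein genes and for 20.7% of all genes. The 3 dose comparisons share the control library.

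Other genes of the same pathway were taken from lists. Among 11 further genes reported as TOP mRNAs, 5 were higher and 2 lower at 10 mGy (median ratio 1.17), with 3 and 2 at 100 mGy. Of all genes, 15.4% were higher and 53.0% lower at 10 mGy. BTF3, a nascent-chain binding protein gene, had a ratio of 1.34 at 10 mGy. HNRNPA1, an RNA-binding protein gene, had 0.788, and EIF4B, a helicase cofactor gene, had 0.526. Of 35 initiation factor genes that passed the floor, 5 were higher and 11 lower at 10 mGy (median ratio 0.922), from EIF3K (1.93) and EIF6 (1.49) to EIF3C (0.546) and EIF4G1 (0.502). EIF3C shares its sequence with the near-identical copy EIF3CL, so its count is uncertain.

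A list of other elongation and termination factor genes also holds genes that are named after these factors without encoding one. Of its 10 genes past the floor, 1 was higher and 4 were lower at 10 mGy, with a median ratio of 0.870. EEF1E1 (1.28) and EEF2KMT (1.10), neither of them an elongation factor gene, were at the top. The release factor gene ETF1 (0.653) and the eEF2 kinase gene EEF2K (0.631) were at the bottom. Of 15 genes for regulators of TOP mRNAs, 1 was higher and 10 were lower (median 0.767), from RHEB (1.21) and EIF4EBP1 (1.16) to RPS6KB1 (0.594) and LARP4B (0.552). Of 20 cytosolic aminoacyl-tRNA synthetase genes, 0 were higher and 9 were lower (median 0.841), from SARS (0.992) and GARS (0.968) to FARSB and TARS (both 0.662). Beside these 10 mGy counts, 15.4% of all genes were higher and 53.0% lower, with a median ratio of 0.810. Among paralogues of the 10 genes, PABPC4 had ratios of 0.687, 0.521 and 1.07, close to those of PABPC1, and EEF1A2 had 1.06, 1.09 and 1.13 at about 13 to 15 CPM. NACAD and PABPC1L stayed under 10 CPM, and NACA2 and PABPC3 under 1 CPM. In each of these lists, the median ratio at 1 Gy lay between 0.962 and 1.10.

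Genes with a pyrimidine run at the annotated start were also set beside genes without one, as a description. Outside the 10 genes, the ribosomal protein genes and the further TOP genes, 504 genes past the floor had such a start. Of these, 15.7% were higher at 10 mGy and 13.5% at 100 mGy, beside 14.7% and 13.3% of the 6363 genes with no such start. Their median ratios were 0.843 and 0.796, beside 0.804 and 0.760 without the start. With a run of at least 8 pyrimidines (176 genes), 17.6% and 13.1% were higher. Ribosomal protein genes were higher at 10 mGy in 44 of 45 cases with the run at the annotated start and in 15 of 16 without it there. With a run allowed to begin within 5 bases of the start, 52 of these 61 genes had one, beside 25.2% of all genes in the promoter table. The split by annotated start therefore does not separate TOP mRNAs from others. Among the 10 genes, EEF2 has the run shown above and was lower at both low doses, and EEF1G lacks it at its annotated start and lay between.

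The 10 genes differ in transcript length, taken as the median over the basic transcripts of GENCODE 29. It was 538 bases for FAU, 825 for RACK1, 880 for EEF1B2, 1054.5 for TPT1 and 1074 for NACA. It was 1311 for EEF1D, 1523 for EEF1G, 2366 for PABPC1, 3164 for EEF2 and 3447 for EEF1A1. The 6 genes that were higher at 10 mGy were the 6 with the shortest transcripts. Spearman's rho between length and ratio over the 10 genes was -0.83, -0.78 and 0.33 at the 3 doses in rising order, given as a description over genes that share the same libraries. Over 8499 genes it was -0.64, -0.66 and 0.04. Over the 76 ribosomal protein genes, most of which have short transcripts, it was -0.11, -0.10 and -0.12. With exonic length, which adds up every annotated exon, rho over the 10 genes was 0.10, -0.04 and -0.67, so the order depends on the measure of length. NACA, for example, has 10008 exonic bases and a longest transcript of 6629 bases.

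**Figure D3:**
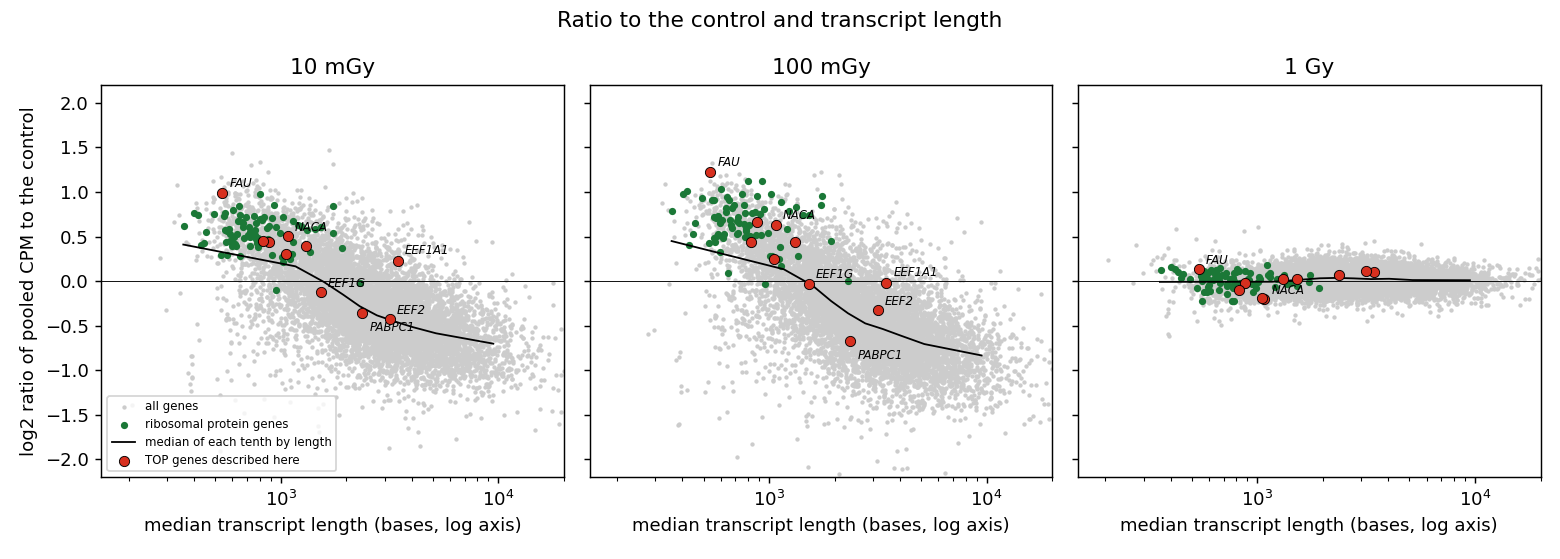
Log2 ratio of pooled CPM to the control (vertical axis) against median transcript length in bases (horizontal log axis) for genes of at least 10 CPM (grey), ribosomal protein genes (green) and the 10 TOP genes (red), with a panel for each dose; the black line joins the medians of 10 length classes of equal size. At the low doses the class median fell from 1.33 and 1.37 times the control among the shortest transcripts to 0.615 and 0.561 among the longest, and at 1 Gy the classes lay close to 1.

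Genes were next set beside genes of like transcript length, in 10 classes of 849 or 850 genes each. The class of the shortest transcripts held 58 of the 76 ribosomal protein genes and 3 of the 10 genes. The next class held 12 and 3. The part of length in the contrast between the ribosomal protein genes and the 10 genes was not tested. The class of the shortest transcripts had a median ratio of 1.33 at 10 mGy and 1.37 at 100 mGy. FAU stood at the 96.7 and 99.8 percentile of this class, while EEF1B2 (53.6 and 72.4) and RACK1 (54.6 and 49.3) stood near its middle or somewhat above. In the next class, with medians of 1.12 and 1.10, NACA stood at the 84.1 and 94.7 percentile, EEF1D at 73.2 and 81.1, and TPT1 at 62.7 and 62.5. EEF1G stood at 38.2 and 52.7 of a class with medians of 0.993 and 0.968. PABPC1 stood at 41.4 and 18.4 of a class with medians of 0.822 and 0.778. EEF2 and EEF1A1 share a class with medians of 0.731 and 0.689, in which EEF2 stood at 53.2 and 72.5 and EEF1A1 at 95.2 and 91.3. Beside genes of like length by this measure, FAU, EEF1A1 and NACA were therefore the highest of the 10. EEF2, lower than the control in CPM, was near or above the middle of its class. These classes hold genes of at least 10 CPM and were not matched for abundance. The classes rest on a median over annotated transcripts, which ran from 1923 to 4441 bases for EEF1A1 and from 802 to 6629 for NACA. Which transcripts these cells expressed was not measured, so the class of such a gene could differ.

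Depth per cell differed between libraries, so ratios were also taken among barcodes of like UMI count. Without the low-UMI barcodes, the control was divided into 5 equal classes by UMI count and the same limits were used in every library. In all 5 classes, EEF1B2, EEF1D, TPT1, RACK1, NACA and FAU were above the control at both low doses. EEF2 and PABPC1 were below it in 5 of 5 classes at both doses. Over all barcodes, 2392 of the 8507 genes were above the control at 10 mGy and 2153 at 100 mGy. Such counts of all genes within the 5 classes were not made. FAU ranged from 1.89 to 2.08 at 10 mGy and from 2.19 to 2.66 at 100 mGy, and PABPC1 from 0.704 to 0.789 and from 0.592 to 0.644. EEF1G was below the control in 5 classes at 10 mGy and in 4 at 100 mGy, and EEF1A1 was above it in 5 and in 3. The sum of the 10 genes was 1.19 to 1.25 times the control at 10 mGy, 1.15 to 1.26 times at 100 mGy and 0.984 to 1.02 times at 1 Gy.

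**Figure D4:**
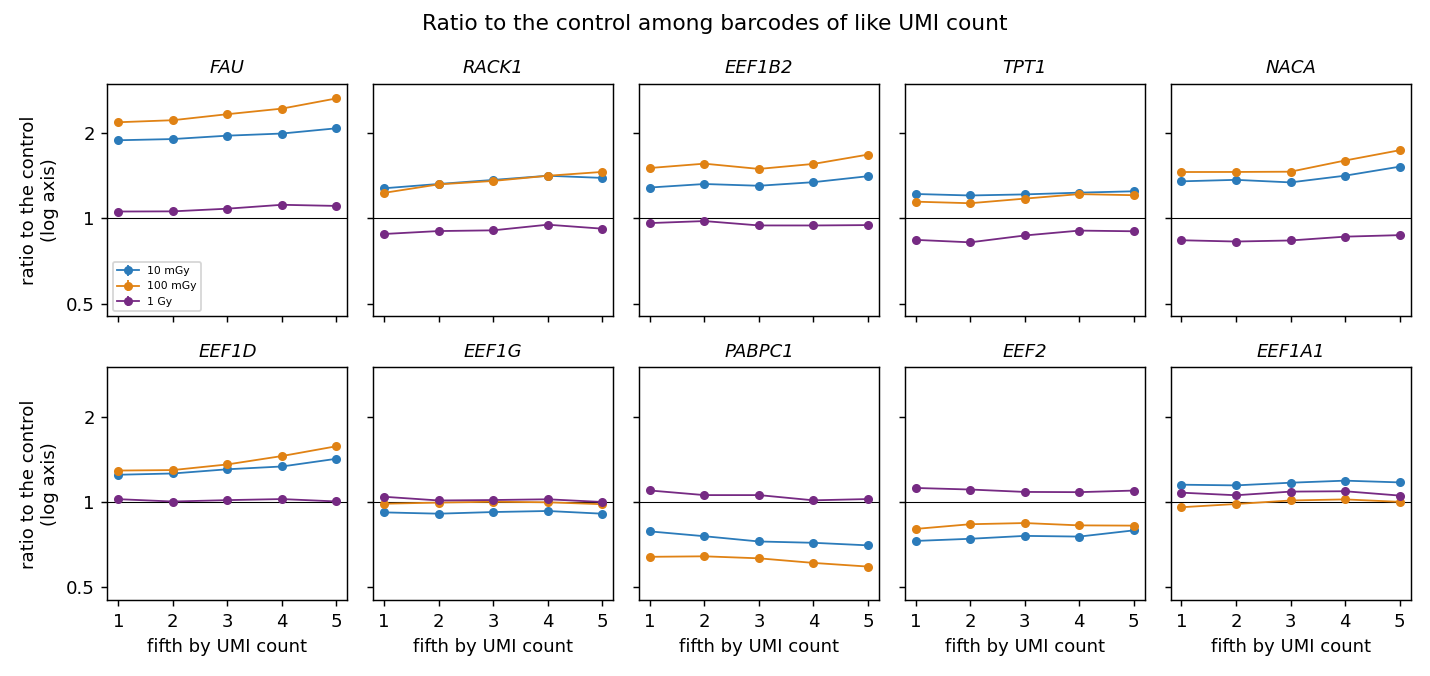
Ratio of CPM to the control (vertical log axis) in 5 classes of barcodes by UMI count, from fewest to most, with the same class limits in each library and 95% counting intervals smaller than the points. The lines of the low doses stay on the same side of 1 in every class for 8 genes and cross it for EEF1G and EEF1A1 at 100 mGy.

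Low-UMI barcodes held few of the UMIs and gave a different picture for PABPC1. In low-UMI barcodes, PABPC1 stood at 631 CPM in the control, 937 after 10 mGy, 627 after 100 mGy and 706 after 1 Gy. In the other barcodes it stood at 579.6, 425, 358 and 607 CPM. Its ratio to the control at 10 mGy was thus 1.49 (1.43 to 1.55) among low-UMI barcodes and 0.733 (0.727 to 0.739) among the others. At 100 mGy the ratios were 0.994 (0.946 to 1.04) and 0.618 (0.612 to 0.623). EEF2 did not share this, for which the low-UMI and other barcodes gave 0.600 and 0.756 after 10 mGy and 0.725 and 0.800 after 100 mGy. EEF1D and RACK1 fell inside the 1.2-fold limit among low-UMI barcodes at both low doses. EEF1D had 1.10 and 1.09 there at 10 mGy and 100 mGy, against 1.33 and 1.36 in the other barcodes. RACK1 had 1.196 and 1.15, against 1.37 and 1.36. EEF1B2, NACA and FAU stayed past the limit in low-UMI barcodes at both low doses. FAU had nearly equal ratios in both classes at 10 mGy (1.99 and 1.98), and 1.32 against 1.09 at 1 Gy.

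**Figure D5:**
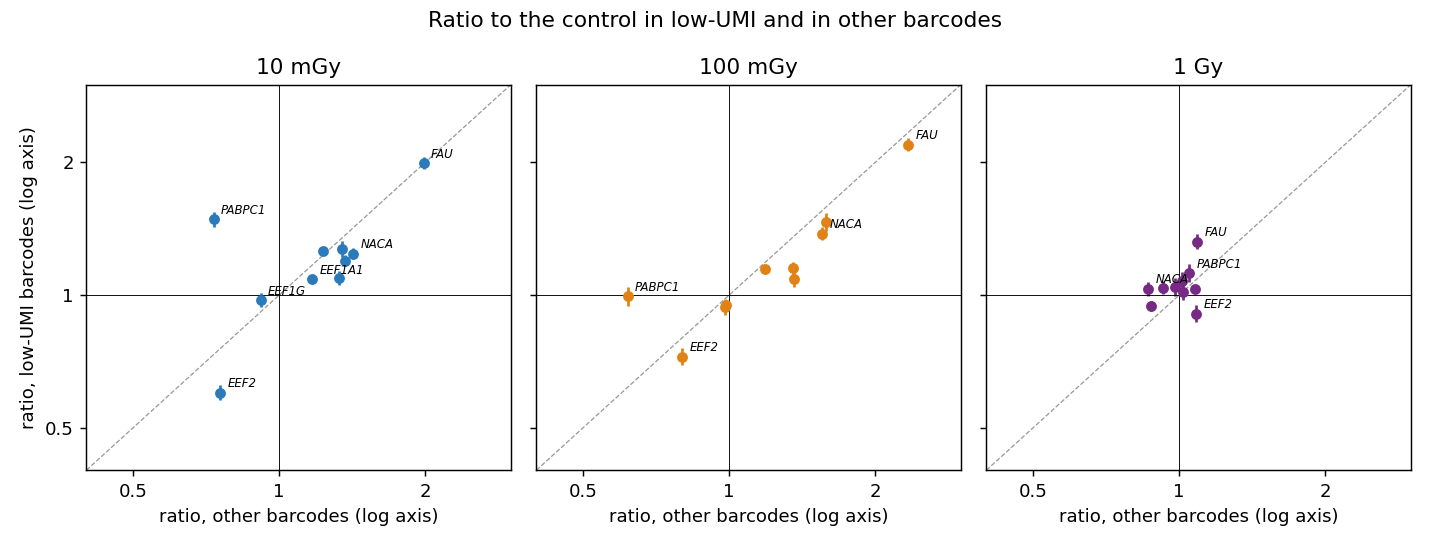
Ratio of CPM to the control among low-UMI barcodes (vertical log axis) against that among all other barcodes (horizontal log axis) for the 10 genes, with a panel for each dose, 95% counting intervals as bars and a dashed line of equality. At 10 mGy PABPC1 lies at 1.49 among low-UMI barcodes and at 0.733 among the others, the only gene on opposite sides of 1 by more than 1.2-fold in each.

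Of 10 mitotic marker genes, 5 were lower and 1 higher at 10 mGy, where 53.0% of all genes were lower and 15.4% higher. At 100 mGy, 3 were lower and 2 higher, where 58.9% of all genes were lower and 14.0% higher. At 1 Gy, 0 were lower and 1 higher, where 0.846% of all genes were lower and 1.28% higher. Among the barcodes with most mitotic marker UMIs, 591 to 1229 per library, the 10 genes took 1.33% of UMIs in the control, 1.57% after 10 mGy, 1.52% after 100 mGy and 1.34% after 1 Gy. Among the other barcodes they took 1.32%, 1.61%, 1.58% and 1.32%. Only 16 to 49 barcodes per library had a very high UMI count, and at most 8 had over 20% mitochondrially encoded UMIs, too few to describe these genes in them.

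Across single cells without low-UMI barcodes, nearly all cells of the low-dose libraries lay above the control's median for FAU. On UMIs scaled to 10000 per cell, the control had a median of 8.43 for FAU, and 98.8% of cells after 10 mGy, 99.4% after 100 mGy and 60.2% after 1 Gy lay above it, beside 49.99% of the control's own cells. For NACA these shares were 90.4%, 91.8% and 31.1%, and for RACK1 87.2%, 82.3% and 40.8%. For EEF2 they were 14.8%, 22.2% and 61.1%, and for PABPC1 19.5%, 11.5% and 55.4%. Over all barcodes, low-UMI ones included, 40.1% lay above the same control median for PABPC1 at 10 mGy. The ranges of the cells overlapped: the 10th to 90th percentile of PABPC1 was 3.49 to 8.19 in the control and 2.27 to 6.45 at 10 mGy. The dispersion (standard deviation over mean) of FAU was 30.5% in the control, 24.4% after 10 mGy, 26.8% after 100 mGy and 32.1% after 1 Gy. Counting alone would give 23.8%, 18.0%, 19.3% and 26.3%. The dispersion of PABPC1 was 32.6%, 39.7%, 49.1% and 35.3%, where counting alone would give 29.2%, 35.7%, 45.6% and 32.7%. The cells of a library share its preparation and are not replicates.

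Within the control, correlations between the 10 genes across cells were limited by counting. Counting alone would give a dispersion of 31.7%, beside 35.7% seen, for EEF1B2 and 23.5%, beside 26.3%, for EEF1G. The gap was wider for EEF1A1 (10.6% beside 16.8%), TPT1 (15.2% beside 22.1%) and RACK1 (20.3% beside 32.2%). Such dispersions are standard deviations and do not add up. Pearson's r, taken on log2 values of scaled UMIs over 8937 cells, had a median of 0.09 over the 45 pairs. It was 0.25 at most, between RACK1 and NACA. With the summed ribosomal protein genes, r ran from -0.13 for PABPC1 to 0.51 for RACK1. The values in a cell share its total, so these are descriptions of 1 library, and low values of r do not show that the genes were unrelated.

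The profile of the 10 genes over the doses was also set beside single genes of at least 100 CPM. Of 1769 candidates, the 10 nearest to their median profile, by Euclidean distance over the 3 log2 ratios, were RNF7, ATP5PB, MRPL20, PRDX3, H3F3B, BRK1, FXYD5, FAM177A1, ECHS1 and CHMP5. Their ratios ran from 1.23 to 1.30 at 10 mGy, a narrow range that follows from their choice by distance. Of them, 0 belong to the 76 ribosomal protein genes counted here, which leave out mitochondrial ribosomal protein genes such as MRPL20. RNF7, the nearest, had 1.28, 1.25 and 1.01, at a distance of 0.022.

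Some of these counts carry a limit of assignment. EEF1A1, TPT1, RACK1 and FAU have processed pseudogenes of near-identical sequence, so part of their reads could have been split or dropped. In the annotation, NACA overlaps PRIM1 and FAU overlaps SYVN1 on the same strand. EEF1A1, EEF1B2, EEF1D, TPT1, RACK1 and FAU overlap genes of the opposite strand, among them NDUFS1 for EEF1B2, TPT1-AS1 for TPT1 and MRPL49 for FAU. How reads in shared stretches were assigned is not given in the sources used here.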

How the data were processed

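The authors deposited unnormalized UMI counts per gene and barcode, 1 matrix for each of 4 libraries (36601 genes, 11111 to 21514 barcodes). The file headers name Cell Ranger 7.0.1, and the submitters' processing notes name STAR and GRCh37. Neither the annotation nor the handling of intronic reads is stated in these sources.

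Groups followed the sample labels. UMIs were summed over every deposited barcode and divided by the library total (CPM). Doublets were kept. With 1 library per dose no test was made. Levels have exact Poisson and ratios exact conditional binomial (Clopper-Pearson) 95% intervals. The limit was 1.2-fold, after the study's methods, over 8507 genes with a mean of at least 10 CPM. Totals of 211752280 to 285806026 UMIs make these intervals narrow, and missing replicates limit the precision. Lengths came from GENCODE 29 (GRCh38), matched by gene ID for 8500 of 8507 genes, and starts from the RefSeq promoter table (GRCh38.p14). Coordinates are those of that table.

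The genes named are the 10 genes, the 2 highest and 2 lowest of each list at 10 mGy (all of a list of 6 or fewer) and the 10 nearest genes. Cell type markers and, for the complexes, BTF3 were named beside them. The genes and lists were chosen with earlier results of these data known. The ratios were checked on simulated data in which a small set of genes changed by known folds and the rest did not. That check therefore did not cover shifts of most genes, as in the low-dose libraries. Low-UMI, very high UMI, mitochondrial and mitotic barcode classes, scalings, filters and floors were alternatives. The first mitotic limit, 3 marker UMIs per 10000, took 8936 of 8937 control barcodes, so the 90th percentile of the control was used, a choice made after seeing the data. Computations ran in Python 3.11.15 with scipy 1.17.1, numpy 2.4.6, matplotlib 3.10.9 and pandas 2.3.3. Results for some single genes of the comparison lists are not reported here.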

Additional observations from a re-analysis of the deposited data

How the results depend on the processing

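The choice of scale moved the results most. The median log2 ratio of the 10 genes was 0.35, 0.34 and 0.02 at 10 mGy, 100 mGy and 1 Gy. It was 0.30, 0.28 and 0.034 as the mean of scaled UMIs, 0.43 and 0.46 at the low doses with a total without ribosomal protein and mitochondrially encoded genes, and 0.34 and 0.32 after thinning to 5000 UMIs. Median ratio scaling gave 0.65, 0.72 and -0.0077. Unscaled UMIs per barcode gave -0.18, -0.30 and -0.46, and without low-UMI barcodes, a setting chosen after seeing the data, 0.24, -0.16 and -0.36. The numbers of higher genes at 10 and 100 mGy, 6 and 5, became 1 and 1 unscaled, 5 and 1 unscaled without low-UMI barcodes, 7 and 8 with median ratio scaling, and 1 and 3 at a limit of 1.5-fold. Shares of all genes past the limit are not given for these settings, and the 15.4% and 14.0% above do not apply to them. The background moved with the scale. At these doses its median log2 ratio lay at -0.83 and -1.03 unscaled and at -0.42 and -0.89 unscaled without low-UMI barcodes. With median ratio scaling it lay at -0.0029 and 0.00047. Relative to the median of all genes, which was not matched for abundance, 8 or 9 genes stood above at each low dose. Unscaled UMIs, the other total and median ratio scaling cannot move this count, since they multiply all genes of a library alike, and the mean of scaled UMIs, thinning and the barcode filters also left it at 8 or 9. The cause of these shifts was not tested.

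Among genes past the 1.2-fold limit, those that changed direction against the control at 10 mGy were EEF1B2 (0.940), EEF1D (0.911), TPT1 (0.857), RACK1 (0.946) and NACA (0.983) unscaled, and PABPC1 (1.08) as the mean of scaled UMIs. Unscaled without low-UMI barcodes, the genes from EEF1B2 to NACA stayed above 1 at 10 mGy (1.24, 1.22, 1.14, 1.26 and 1.31 in that order). At 100 mGy the genes past the limit that changed direction were EEF1D (0.866), RACK1 (0.865) and NACA (0.993) unscaled, EEF1D (0.962) and RACK1 (0.959) unscaled without low-UMI barcodes, and EEF2 (1.04) with median ratio scaling. Genes inside the limit crossed 1 as well. At 10 mGy these were EEF1A1 (0.809 unscaled) and EEF1G (1.13 with median ratio scaling). At 100 mGy they were TPT1 (0.759 unscaled, 0.839 unscaled without low-UMI barcodes), and EEF1A1 (1.07) and EEF1G (1.06) with the total without ribosomal protein and mitochondrially encoded genes, or 1.29 and 1.28 with median ratio scaling. At 1 Gy, where no gene passed the limit, the 6 ratios above 1 fell below it unscaled, EEF1D (0.994) and EEF1G (0.995) did so with median ratio scaling, and EEF1B2 (1.01) rose above it as the mean of scaled UMIs. Leaving out low-UMI barcodes, alone or together with very high UMI barcodes, or barcodes with under 200 genes or over 20% mitochondrially encoded UMIs turned no gene and changed no count. The share of all genes that were higher at 1 Gy was 3.14% with a floor of 1 CPM. No paired analysis was possible because each group had 1 library. Depth did not limit the pooled counting intervals of these abundant genes, whereas the missing replicates limited the comparison of doses. Values of single cells were limited by counting, as given above.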
